A study of Mus musculus with 6 samples.

Results

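Oligodendrocyte lineage genes were examined in cultured mouse cortical astrocytes, as 9 genes taken by symbol from the 55357 listed: Olig1, Olig2, Sox10, Pdgfra, Cspg4, Mbp, Cnp, Gpr17 and Mag. Each symbol matched 1 gene, and all 9 were among the 15280 genes whose mean reached 10 normalized counts and that were therefore tested. The astrocytes came from cortices of C57BL/6 mouse embryos at embryonic day 18. In the first group (KE, n = 3), BRAF K499E with a FLAG tag was expressed from a transfected plasmid under the CMV promoter, which is active in most cell types and is not particular to astrocytes. In the second group (NT, n = 3), the cultures were nontransfected and their genotype is given as naive, and neither an empty plasmid nor BRAF WT is among the samples used here, so that transfection and BRAF KE cannot be told apart. RNA was taken 48 hours after transfection. Nothing in the labels says that replicates came from separate litters, so the p-values measure the spread between these cultures only.

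Oligodendrocytes are the cells that wrap axons of the central nervous system in myelin. They arise from oligodendrocyte progenitor cells, which carry the receptor PDGFRA and the proteoglycan NG2, divide in response to PDGF-A and are specified by OLIG2, OLIG1 and SOX10. On the way to maturity they pass through a premyelinating stage marked by GPR17 and then express myelin proteins such as MBP, CNP and MAG. In cultures of newborn or embryonic cortex, progenitors commonly grow on top of the astrocyte layer, and shaking, which was part of the preparation used here, is the usual way to detach them. OLIG1 and OLIG2 are also found in progenitors that form astrocytes, and Pdgfra and Cspg4 are also expressed by fibroblasts and by pericytes, respectively. ERK signaling, which BRAF KE activates, is known to act on the proliferation of progenitors and on myelin formation.

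Since most of the 9 genes moved in one direction, the 250 bases upstream of the annotated start are shown for a pair of genes that were lower in KE, Pdgfra and Olig2, and for the one that was higher, Cnp. They are read 5′ to 3′ on the coding strand from the RefSeq promoter table on GRCm38.p6, in which 5 of the 9 genes were found (Cspg4 and Mag were the others). Capitals mark the E-box CANNTG, the letters bound by basic helix-loop-helix factors such as OLIG1 and OLIG2, which reads the same on both strands.
Pdgfra (chr5:75152001-75152250, plus strand): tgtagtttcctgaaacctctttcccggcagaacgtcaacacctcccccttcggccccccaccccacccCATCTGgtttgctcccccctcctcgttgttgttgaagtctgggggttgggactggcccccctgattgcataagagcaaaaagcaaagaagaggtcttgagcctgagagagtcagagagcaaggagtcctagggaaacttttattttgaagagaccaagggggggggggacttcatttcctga
Olig2 (chr16:91225300-91225549, plus strand): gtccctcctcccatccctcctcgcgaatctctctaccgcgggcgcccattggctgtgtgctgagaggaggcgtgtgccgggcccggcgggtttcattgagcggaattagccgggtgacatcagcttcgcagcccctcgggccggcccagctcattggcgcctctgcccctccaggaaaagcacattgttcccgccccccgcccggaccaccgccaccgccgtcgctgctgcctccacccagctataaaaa
Cnp (chr11:100574689-100574938, plus strand): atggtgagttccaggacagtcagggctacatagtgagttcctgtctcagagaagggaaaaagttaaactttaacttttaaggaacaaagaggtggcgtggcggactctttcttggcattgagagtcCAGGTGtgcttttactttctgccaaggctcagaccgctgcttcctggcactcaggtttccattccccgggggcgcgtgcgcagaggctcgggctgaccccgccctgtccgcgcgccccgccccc
Pdgfra and Cnp have 1 E-box each in this window and Olig2 has 0, while 66.2% of the 32851 promoters in the table hold at least 1. The letters ACAAAG, a core bound by SOX factors, were searched on both strands and occur 1 time upstream of Cnp and 0 times upstream of Pdgfra and Olig2, against 16.5% of all promoters with at least 1. GC content was 54.4% for Pdgfra, 66.8% for Olig2 and 57.2% for Cnp, with a median of 52.4% over the table. These matches are a description of the letters only.

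The transfection was visible in Braf itself, which lay between 34933 and 40978 normalized counts in KE and between 811 and 946 in NT. Approximate depth ranged from 24500000 to 34100000 reads per culture and was lowest in KE replicate 2. No culture was left out.

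Lower RNA levels of oligodendrocyte lineage genes were found in BRAF KE–transfected astrocytes for 7 of the 9 genes, Cnp was higher and Mag was not called. The count of lower genes was 4 without KE replicate 3, without NT replicate 2 or without the variance trend of the fit. By the same test (limma on log2 of the normalized count plus 1, adjusted p under 0.05), 26.0% of all tested genes were lower, 25.3% were higher and 51.3% were called in either direction. The median log2FC of the 9 genes was -0.55, against 0.0018 for all tested genes. For 7 of the 9 genes no KE culture crossed an NT culture (6 lower in KE and Cnp higher), a pattern that 59.9% of all tested genes showed. The 9 genes are too few, and were chosen with earlier results known, for their share to be tested against that background. RNA was taken from whole cultures. Fewer cells of the lineage, less RNA per cell and changes in other cells that express these genes therefore cannot be told apart.

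**Figure D1:**
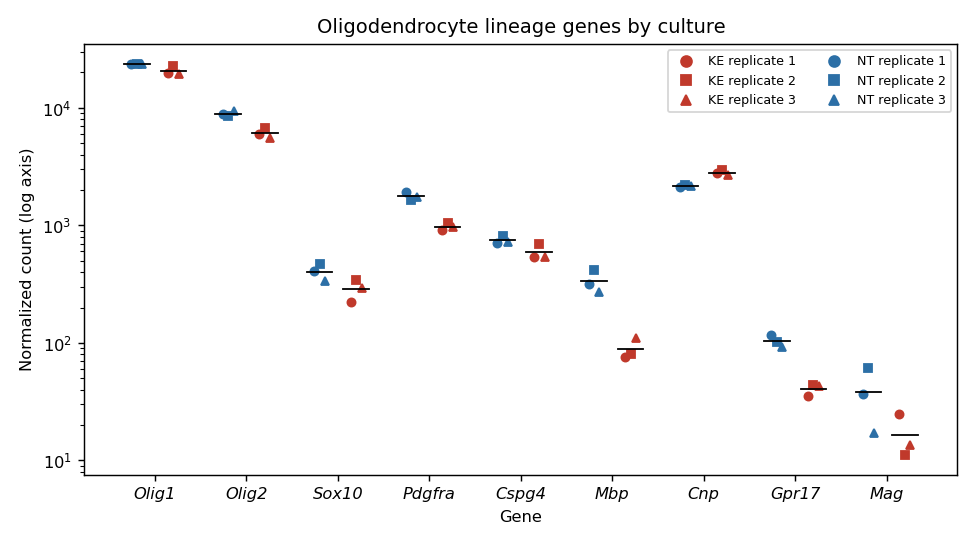
Normalized counts (log axis) of the 9 oligodendrocyte lineage genes in each of the 3 KE (red) and 3 NT (blue) cultures, with replicates 1, 2 and 3 as circles, squares and triangles and group means as black lines. The groups do not overlap for Olig1, Olig2, Pdgfra, Cspg4, Mbp, Cnp and Gpr17 and overlap for Sox10 and Mag.

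All 3 transcription factors were lower in KE, and Olig2, which specifies the lineage, is the one that was called under every alternative. Olig2 (ENSMUSG00000039830; GRCm39 chromosome 16, 91019435 to 91025567, plus strand) was 6004, 6701 and 5576 normalized counts in KE and 8808, 8555 and 9419 in NT. Every KE culture was below every NT culture, with means of 6094 ± 568 (SD, n = 3) against 8927 ± 444 (SD, n = 3), and the log2FC was -0.55 (SE 0.07, limma adjusted p = 7.97e-05). Its neighbor Olig1, whose start lies 47225 bases away (ENSMUSG00000046160; chromosome 16, 91066660 to 91068821, plus strand, a single exon), encodes a related factor with a role in myelin repair. Olig1 was 19915, 22863 and 19469 in KE and 23768, 23786 and 23526 in NT. The NT cultures were nearly equal and the KE cultures lay just below them, giving a log2FC of -0.20 (SE 0.07, limma adjusted p = 0.0314). This small difference lost its call without KE replicate 1 (-0.17, adjusted p = 0.111), KE replicate 3 (-0.15, 0.104), NT replicate 1 (-0.19, 0.0720), NT replicate 2 (-0.19, 0.0752) or NT replicate 3 (-0.20, 0.0602). Both Olig genes overlap antisense transcripts, the highest of which, Gm49614, had means of 19.0 in KE and 22.3 in NT.

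Sox10 (ENSMUSG00000033006; chromosome 15, 79039108 to 79049469, minus strand) encodes the factor that turns on most myelin genes. It was 221, 346 and 296 normalized counts in KE and 406, 469 and 337 in NT. KE replicate 2 was above NT replicate 3, so the groups overlapped, although the log2FC of -0.50 (SE 0.17) had a limma adjusted p of 0.0281. The call was lost without KE replicate 1 (-0.32, adjusted p = 0.114), KE replicate 3 (-0.53, 0.0566), NT replicate 1 (-0.49, 0.0750) or NT replicate 2 (-0.39, 0.106).

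The receptor gene Pdgfra was the most reduced of the progenitor surface genes. Pdgfra (ENSMUSG00000029231; chromosome 5, 75311994 to 75358876, plus strand), the receptor through which PDGF-A drives progenitor division, was 904, 1049 and 961 normalized counts in KE and 1938, 1637 and 1744 in NT. The highest KE value was well under the lowest NT value, with means of 971 ± 73.0 (SD, n = 3) and 1773 ± 153 (SD, n = 3) and a log2FC of -0.87 (SE 0.08, limma adjusted p = 7.36e-06). Cspg4 (ENSMUSG00000032911; chromosome 9, 56772317 to 56807187, plus strand), which encodes NG2, was 533, 699 and 540 in KE and 706, 815 and 719 in NT. KE replicate 2 came close to NT replicate 1 without crossing it, and the log2FC was -0.35 (SE 0.11, limma adjusted p = 0.0240). Without KE replicate 1 (-0.28, adjusted p = 0.0971), KE replicate 3 (-0.29, 0.0919) or NT replicate 2 (-0.28, 0.0884) Cspg4 was not called.

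Of the genes of the premyelinating and myelinating stages, Gpr17, Mbp and Mag were expressed at low levels and Cnp was not, and the largest falls that passed the test were those of Mbp and Gpr17. Gpr17 (ENSMUSG00000052229; chromosome 18, 32076050 to 32082888, minus strand), a G protein–coupled receptor that restrains maturation, was 35.3, 43.8 and 42.6 normalized counts in KE and 116, 103 and 92.4 in NT. Each NT culture was above each KE culture, and the log2FC was -1.33 (SE 0.19, limma adjusted p = 0.000147). Lims2, on the opposite strand, shares 320 exonic bases with Gpr17 and had means of 24.0 in KE and 17.4 in NT. Mbp (ENSMUSG00000041607; chromosome 18, 82493207 to 82603763, plus strand), which encodes the protein that compacts myelin, was 76.2, 80.8 and 111 in KE and 318, 419 and 269 in NT. The KE mean of 89.2 ± 18.7 (SD, n = 3) was 0.266 of the NT mean of 335 ± 76.5 (SD, n = 3), and the log2FC of -1.89 (SE 0.19, limma adjusted p = 1.16e-05) was lower than that of all but 2.87% of tested genes. The table gives Mbp 1 value and does not separate the classic myelin transcripts from the longer golli transcripts of the same gene, which are also known from immune cells and neurons.

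Mag (ENSMUSG00000036634; chromosome 7, 30598464 to 30614474, minus strand), an adhesion protein of the inner myelin wrap, was the lowest of the 9 genes. Its normalized counts were 24.7, 11.1 and 13.6 in KE and 36.9, 61.3 and 17.0 in NT, from approximately 8.86 to 59.1 reads per culture. The groups overlapped and Mag was not called, with a log2FC of -1.08, a 95% interval from -2.08 to -0.08, which is not adjusted for the number of genes, and a limma adjusted p of 0.0685. It was called without KE replicate 1 (-1.39, adjusted p = 0.0423) or without NT replicate 3 (-1.55, 0.00769).

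Cnp was the only one of the 9 genes that was higher in KE. Cnp (ENSMUSG00000006782; chromosome 11, 100465730 to 100482936, plus strand), which encodes a phosphodiesterase of noncompact myelin, was 2768, 2980 and 2669 normalized counts in KE and 2116, 2189 and 2165 in NT. All KE cultures were above all NT cultures, with means of 2806 ± 159 (SD, n = 3) and 2157 ± 37.0 (SD, n = 3) and a log2FC of 0.38 (SE 0.06, limma adjusted p = 0.000362). Cnp shares 670 exonic bases with Dnajc7 on the opposite strand, which had means of 4512 in KE and 4363 in NT. The library kit keeps strand, but whether the counting used it is not given in the sources used here.

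**Figure D2:**
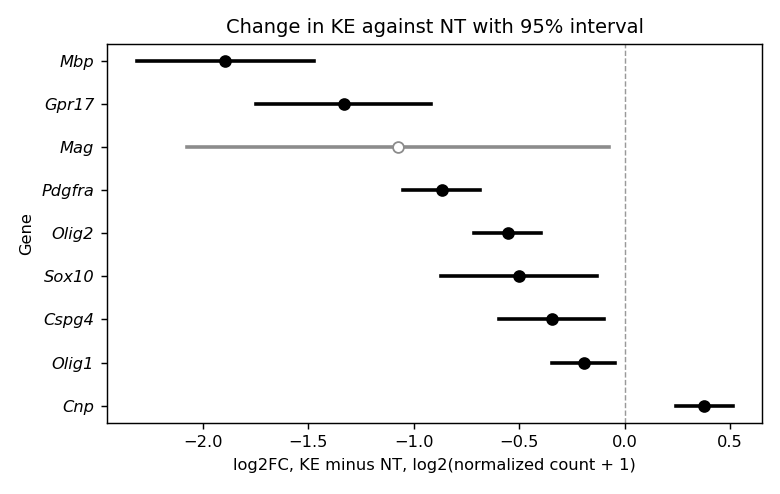
The log2FC between KE and NT of each of the 9 genes on the log2(normalized count + 1) scale (points) with the 95% interval from limma (lines), filled and black where the gene was called and open and gray where it was not. Mbp, at -1.89, is farthest from the dashed line at no difference, and Cnp, at 0.38, is the only gene to its right.

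Per kilobase of exon, the 9 genes spanned more than 3 orders of magnitude, with Olig1 and Olig2 highest in both groups and Mag lowest. In NT the mean level per kilobase was 10959 normalized counts for Olig1, 2157 for Olig2, 533 for Cnp, 144 for Pdgfra, 121 for Sox10, 62.4 for Cspg4, 34.4 for Mbp, 19.2 for Gpr17 and 7.74 for Mag. Among neighbors in this order, only Pdgfra and Sox10 had overlapping cultures. In KE the order of levels per kilobase was Olig1 (9597), Olig2 (1472), Cnp (693), Sox10 (86.3), Pdgfra (78.9), Cspg4 (49.4), Mbp (9.16), Gpr17 (7.51) and Mag (3.32), with overlapping cultures for Sox10 and Pdgfra and for Mbp and Gpr17. Olig1 was thus above 99.6% of tested genes in NT and Mag above 10.3%. For comparison, Gfap, the intermediate filament of astrocytes, had 3028 in NT and 5517 in KE on the same scale. The lengths sum all annotated exons of a gene, so genes with many isoforms, such as Mbp and Pdgfra, are placed low. The coefficient of variation between cultures ranged from 0.612% in NT for Olig1 to 57.8% in NT for Mag, and was 8.89% and 43.9% in KE for the same genes.

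**Figure D3:**
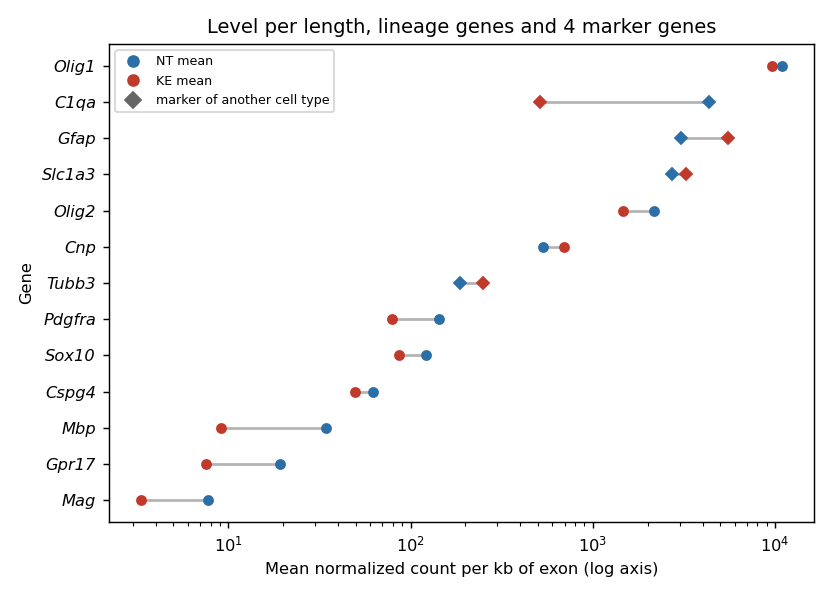
Mean normalized count per kilobase of annotated exon (log axis) in NT (blue) and KE (red) for the 9 lineage genes (circles) and for Gfap, Slc1a3, C1qa and Tubb3 as marker genes of astrocytes, microglia and neurons (diamonds). Olig1 lies above every marker shown, while Mbp, Gpr17 and Mag lie at the bottom.

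Ratios between genes within 1 culture do not depend on how the cultures were scaled, and 3 were compared. Their differences between the groups follow from the log2FC of the single genes and are not separate evidence. Olig1 exceeded Olig2 by 3.32, 3.41 and 3.49 times in KE and by 2.70, 2.78 and 2.50 times in NT, so that the ratio was higher in every KE culture. The ratio of Pdgfra to Cspg4 was 1.70, 1.50 and 1.78 in KE and 2.75, 2.01 and 2.43 in NT, and was lower in every KE culture. Mbp relative to Cnp was 0.0275, 0.0271 and 0.0415 in KE and 0.150, 0.191 and 0.124 in NT, a difference in mean log2 ratio of -2.27. The groups were separate for all 3 ratios, each with an exact two-sided permutation p of 0.1, which is the smallest that 3 cultures against 3 allow and leaves each above 0.05 before any adjustment for the 3 comparisons.

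**Figure D4:**
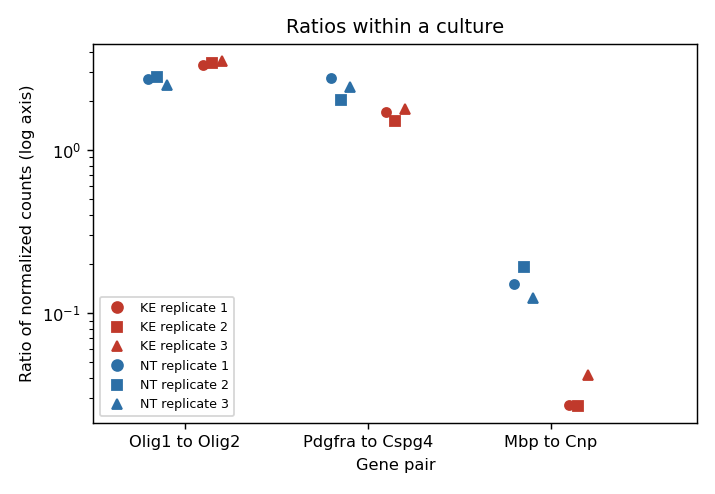
Ratio of the normalized counts of 2 lineage genes within each culture (log axis), KE in red and NT in blue, for Olig1 to Olig2, Pdgfra to Cspg4 and Mbp to Cnp. KE cultures lie above NT cultures for the first ratio and below them for the other two.

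The rest of the lineage was described with 43 further genes in 3 lists, of which 32 passed the mean filter. The cultures were of astrocytes and RNA was taken from whole cultures. Which cells made the RNA of the listed genes was therefore not tested, and their changes need not be changes of lineage cells. In KE 15 were lower (46.9%), 5 were higher (15.6%) and 12 were not called, with a median log2FC of -0.29. Over all tested genes 26.0% were lower and 25.3% were higher. The lists here and below are too small for their shares to be tested against these. Of 10 tested genes of the progenitor stage, 6 were lower and C1ql1 (0.44) was higher. Ptprz1, a receptor phosphatase, was 17978, 17058 and 19241 in KE and 24249, 22956 and 23968 in NT (log2FC -0.39), and Sox5, a SOX family transcription factor, had a log2FC of -1.10. Nkx2-2, Sox8 and Lhfpl3 were also lower, at -0.80, -0.48 and -0.60. Vcan (0.03) and Sox6 (-0.17) were not called, but Sox6 was called without KE replicate 3 (-0.25, limma adjusted p = 0.00473).

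Among 9 tested premyelinating genes, 4 were lower (44.4%) and 2 were higher (22.2%). Fyn, a kinase that signals at the start of myelination, Bcas1, Enpp6 and Zfp488 were lower, with log2FC of -0.32, -0.88, -0.94 and -0.62. Between 2 and 3 of these genes were called lower when 1 culture was left out, 2 of them without NT replicate 1. Nkx6-2 (1.49) and the calcium channel gene Itpr2 (0.36) were higher. Nkx6-2 was low in both groups, at 21.8, 27.1 and 33.1 in KE and 4.76, 14.6 and 9.90 in NT. Its NT mean of 9.77 was under the filter of 10, so that it was tested only through its KE values, and it was also called with no filter. Tns3 (0.12) was not called, and neither was Myrf (-0.18), which encodes the master regulator of myelin genes.

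Of 22 myelin and mature oligodendrocyte genes, 13 were tested, with 5 lower (38.5%), 2 higher (15.4%) and 6 not called. Mobp, a protein of compact myelin, was 1.89, 3.31 and 7.56 in KE and 15.3, 21.4 and 31.8 in NT (log2FC -2.27). Ugt8a, the enzyme that makes galactosylceramide, Trf, which encodes transferrin, and Ndrg1 were also lower, at -1.30, -1.29 and -0.40. Apod, a lipid carrier, had the largest log2FC of the lineage lists, from 2.77, 14.5 and 4.73 in NT to 81.0, 80.3 and 82.3 in KE (log2FC 3.56), and Sirt2 was higher by 0.24. Mobp (mean of 4.25 in KE) and Apod (mean of 7.33 in NT) passed the filter of 10 only through the group where each was high, which favors a difference, and both were also called with no filter. The markers of mature cells Mog, Opalin, Aspa, Klk6 and Hapln2 did not reach a mean of 10, and Klk6 was listed at 0 in every culture.

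The ligands and the second receptor of the PDGF family were listed for their relation to Pdgfra. Pdgfa, which encodes the main ligand of PDGFRA, moved in the opposite direction, with 1826, 1690 and 1756 in KE and 1078, 1156 and 1100 in NT (log2FC 0.66, limma adjusted p = 8.88e-06). Pdgfb was lower (-0.66), while Pdgfc (0.13) and Pdgfd (-0.15) were not called. Pdgfrb (-0.21) was not called either, except without NT replicate 1 (-0.32, limma adjusted p = 0.0284).

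Markers of other cell types moved between the groups as well. All 13 microglia and macrophage markers were lower in KE, with a median log2FC of -3.31, and their summed level was between 5242 and 7147 in KE and between 42167 and 49058 in NT. C1qa, which encodes a complement subunit, had a log2FC of -3.12. Of 10 astrocyte markers 6 were higher, Gfap (0.87) among them, and 2 were lower (1 without KE replicate 1, KE replicate 3, NT replicate 2 or NT replicate 3), with summed levels of 150288 to 152751 in KE and 109516 to 114729 in NT. Slc1a3 (0.25), the astrocyte marker with the highest normalized count before division by length, lost its call under quantile normalization (0.09, limma adjusted p = 0.209). Of 14 fibroblast and mural cell markers 11 were tested, with 4 higher and 5 lower, among the latter Tagln (-1.17) and Acta2 (-1.34), the highest of the list, while Rgs5, a pericyte gene, was higher (0.79) and Anpep was lower (-2.36). Kcnj8, Abcc9 and Vtn, also known from pericytes, did not reach a mean of 10. The count of higher genes in that list was between 1 and 3 when 1 culture was left out, and was 1 without KE replicate 3. The count of lower genes fell to 4 without KE replicate 2, KE replicate 3, NT replicate 1 or NT replicate 2. The summed level of all 14 markers was 3814 to 4089 in KE and 5185 to 6880 in NT.

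Of 12 neuron markers 9 were tested, with 3 higher, Tubb3 (0.43) among them, and 1, Stmn2 (-0.58), lower (2 lower without KE replicate 1), and the summed level was 2241 to 2496 in KE and 1927 to 2428 in NT. The neuronal genes Rbfox3 and Slc17a7 were below the mean filter, and Slc17a6 was listed at 0. Of 6 endothelial markers 3 were tested and 2 were lower, Flt1 (-0.62) and Pecam1 (-0.86), the latter not called without a filter on low genes (limma adjusted p = 0.0567), without NT replicate 1 (-0.81, limma adjusted p = 0.0581) or NT replicate 2 (-0.77, 0.0696), with a summed level of 237 to 302 in KE and 337 to 496 in NT. Of 6 Schwann cell and neural crest markers, listed because Sox10 also acts there, 4 were tested and 3 were higher, Cdh19 (0.72) among them, while Prx (-0.31) was called lower only without KE replicate 2 (-0.43, limma adjusted p = 0.0357). Their summed level was 819 to 861 in KE and 557 to 637 in NT, with Foxd3 listed at 0. The count of higher genes in this list fell to 2 without KE replicate 1, KE replicate 2, KE replicate 3, NT replicate 1 or NT replicate 2. Ngfr in this list (mean of 9.21 in NT) and Myh11 in the fibroblast and mural cell list (6.39 in NT), both among the higher genes, passed the filter only through KE. The part of these other cell types in the differences of the 9 lineage genes was not tested.

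**Figure D5:**
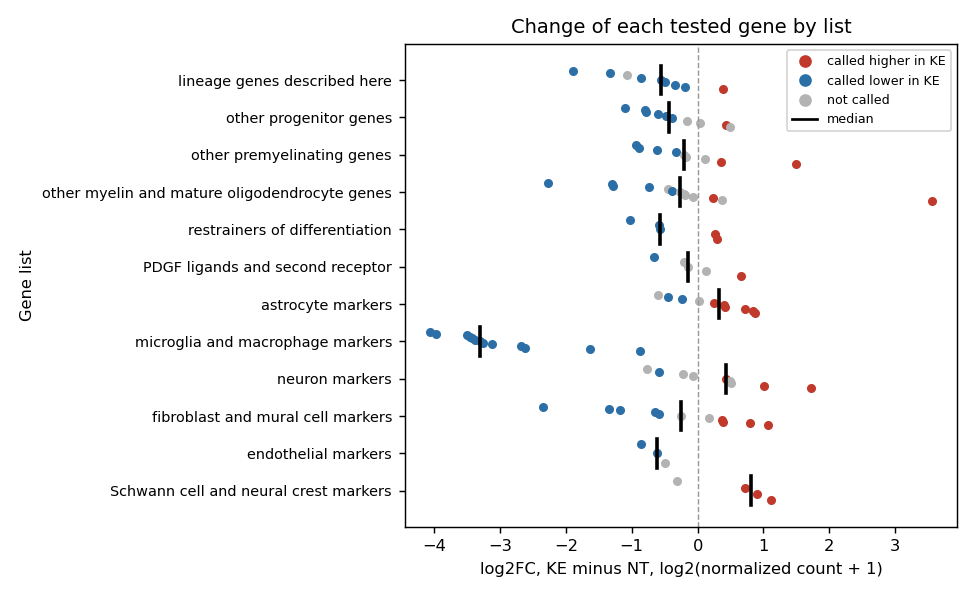
The log2FC between KE and NT of every tested gene in the 9-gene group and in each other list, on the log2(normalized count + 1) scale, colored red where called higher in KE, blue where called lower and gray where not called, with the list's median as a black line. The medians are -0.55 for the 9 lineage genes, -0.43 for the other progenitor genes, -0.20 for the premyelinating genes and -0.26 for the myelin genes, and -3.31 for the microglia markers.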

How the data were processed

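Total RNA of 3 KE and 3 NT cultures was sequenced from stranded mRNA libraries. The authors deposited a normalized signal for each gene and culture, that is, gene counts divided by size factors from DESeq2, made after Trim Galore, STAR and Salmon. The methods name GRCm39 for mouse, whereas the submitters' processing notes list GRCh38. The gene identifiers are those of mouse. Size factors remove depth, which was approximated from the most frequent low value, and whole reads were not recovered.

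Values were analysed as log2(normalized count + 1) in R 4.3.3. Genes averaging 10 or more over the 6 cultures entered limma 3.58.1, which compared the groups without covariates and let the variance follow the mean. Tests were two-sided, with Benjamini-Hochberg adjustment across the 15280 genes tested. The fit was run on simulated normal log2 values with far fewer changed genes than were called here. That run checks the code and does not measure the error of these calls. Ratios were compared by exact permutation (SciPy 1.17.1). Gene positions and exon lengths came from Gencode vM39 on GRCm39.

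The 9 genes and all lists were chosen with earlier results of these data known. The genes named beyond the 9 were the 3 highest of each lineage list and those called with an absolute log2FC over 1, and the 2 highest of each marker list. Other genes named from the lists were chosen after their values were seen. Some genes of the lists enter the counts and sums but are not reported here by name. Alternatives were pseudocounts of 0.5 and 5, no filter or a mean of at least 50, quantile or 75th-percentile scaling, no variance trend, the replicate block and leaving out each culture.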

Additional observations from a re-analysis of the deposited data

How the results depend on the processing

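Of the 9 lineage genes, 5 (Olig2, Pdgfra, Mbp, Gpr17 and Cnp) were called in the same direction under all 14 alternatives, and no gene of the 9 changed sign under any. Olig1, Sox10 and Cspg4 also lost their calls without the variance trend (adjusted p = 0.0877, 0.0857 and 0.0697), which left 4 genes lower. With any single culture removed, 4 to 7 genes were lower, with 4 without KE replicate 3 and 4 without NT replicate 2. Over the alternatives, the adjusted p from limma ranged from 0.00441 to 0.111 for Olig1, from 0.0115 to 0.114 for Sox10, from 0.00254 to 0.0971 for Cspg4 and from 0.00769 to 0.263 for Mag. Of the other oligodendrocyte genes, 3 rather than 5 were higher with a mean of at least 50, since low genes such as Apod and Nkx6-2 were then not tested. The replicate block changed no call among the 9 genes (7 lower, 1 higher), and gave 4079 lower and 3967 higher genes in all. The deviations of same-numbered cultures correlated by 0.0589 to 0.0664 and those of differently numbered cultures by -0.0499 to -0.0105. Each KE culture thus correlated best with the NT culture of its own number, although the correlations were small. The labels do not say whether same-numbered cultures were prepared together, and this was not tested. With 3 cultures a group and approximately 8.86 reads for Mag in KE replicate 2, differences of the lowest genes are the least precise.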

Other observations

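Genes that hold back oligodendrocyte differentiation were listed as Id2, Id4, Hes1, Hes5 and Lingo1, and all 5 were called, 3 lower and 2 higher in KE. Of all tested genes 51.3% were called, 26.0% lower and 25.3% higher, and 5 genes are too few to be tested against that background. Hes5, a Notch effector, was 109, 135 and 124 normalized counts in KE and 305, 278 and 184 in NT (log2FC -1.03). Id2, an inhibitor of basic helix-loop-helix factors, was 1376, 1469 and 1389 in KE and 2303, 1824 and 2221 in NT (log2FC -0.58), and Lingo1 had a log2FC of -0.58. In contrast, Id4 (0.30) and Hes1 (0.26) were higher. Hes1 lost its call without KE replicate 1 (0.26, limma adjusted p = 0.0801), KE replicate 2 (0.23, 0.0935) or NT replicate 2 (0.20, 0.123).

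Genes whose log2 profiles over the 6 cultures lay closest to those of the 3 highest lineage genes, by Euclidean distance after centering, were Mogs (0.0501) and Mcrs1 (0.0543) for Olig1, Rhobtb1 (0.0671) and Ppan (0.0752) for Olig2, and Alas1 (0.0598) and Ell (0.0613) for Cnp. None of these 6 is in the lineage lists used here.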
